A study of Mus musculus with 4 samples.

Results

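The Mediator complex was described here through its messenger RNA in mouse oocytes. Its members were chosen by symbol, as every gene named Med followed by a number, with or without a final l, plus Cdk8, Cdk19 and Ccnc. The rule found 33 of the 17945 genes in the deposited table, carried by 111 of its 48574 transcript models. The oocytes were SN, with condensed chromatin in a ring around the nucleolus (2 libraries), or NSN, without that ring (2 libraries). Both classes were germinal vesicle oocytes, held in meiotic prophase with an intact nucleus, from unprimed females at postnatal day 20, kept in medium with 1 µg/ml milrinone, which blocks meiotic resumption. The class of each oocyte was assigned by software from bright-field images, without a DNA stain. No strain, genotype or transgene is stated in the sources used here, and 15 oocytes made up each class. How they were divided between the libraries, and whether the replicates came from separate animals, is not stated there, and p-values therefore cover no more than the variation among these 4 libraries, part of which may be technical.

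Mediator is a large assembly that bridges transcription factors bound at enhancers and promoters to RNA polymerase II. A head and a middle module contact the polymerase, Med14 runs through the complex as its scaffold, and the tail receives most activators. A separable kinase module docks on the core and regulates its contact with the polymerase. Mouse oocytes transcribe actively in the NSN configuration and become globally silent in the SN configuration, in which they rely on stored mRNA.

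Totals were 37023401 and 36922573 estimated counts in the SN libraries, against 32307398 and 32541920 in the NSN libraries. The 9 oocyte markers (Zp1, Zp2, Zp3, Gdf9, Bmp15, Ddx4, Dazl, Nobox and Figla) summed to 22455 and 21363 CPM (counts scaled to the library total) in SN libraries, against 21694 and 20809 CPM in NSN libraries. The 12 granulosa and cumulus markers summed to 76.8 and 88.3 CPM in SN and to 95.5 and 87.0 CPM in NSN. The largest parts were Cyp19a1, with 41.8 and 44.6 CPM in SN and 42.3 and 44.5 CPM in NSN, and Nr5a2. The smaller parts were less even: Inha had 3.32 and 6.55 CPM in SN, against 11.7 and 4.33 CPM in NSN. Like Inha, Amh, Fshr, Foxl2, Fst, Hsd17b1 and Amhr2 were highest in NSN replicate 1, some of them on few counts. Inhba, Kitl, Nr5a2, Cyp19a1 and Wt1 were highest in other libraries. No marker of these lists was at 0 in all 4 libraries, but Foxl2 rested on 2 counts in NSN replicate 1 and Wt1 on 1 count in NSN replicate 2. The 7 measured theca and stroma markers summed to 6.32 and 6.85 CPM in SN and to 8.11 and 9.43 CPM in NSN, and the 7 measured blood, immune and endothelial markers to 16.7 and 20.9 CPM in SN and to 17.4 and 19.5 CPM in NSN. Among these, the haemoglobin gene Hba-a1 had 18 and 26 counts in SN libraries and 0 counts in both NSN libraries, where a count of 0 allows up to 3 counts per library. The part of other cells in the results below was not tested.

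All 33 members were detected, but their levels spanned a wide range. TPM, an abundance per transcript length scaled to a common sum, was used to compare genes with each other. The mean over the 4 libraries was above 100 TPM for 11 members, between 10 and 100 TPM for 15 members and below 10 TPM for 7 members. Med27 stood at the top with 1477 TPM, 7477 times the 0.198 TPM of Cdk19 at the bottom, and ranked 108th among all genes. In the order of mean TPM, 21 of 32 neighbouring pairs had overlapping library values. Med27, Med10, Med24, Med12 and Med12l were among the genes separated from the next lower one, and the gap of Med12l over Cdk19 was 4.29-fold.

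By module, the median level was 485 TPM for the head-tail junction genes, 121 TPM for the middle, 89.3 TPM for the head, 13.2 TPM for the tail, 11.0 TPM for the scaffold Med14 and 2.62 TPM for the kinase module. The 4 junction genes held 50.02% and 46.2% of the summed TPM of all members in SN libraries, against 46.6% and 44.9% in NSN libraries. Med27 alone held 30.0% and 27.1% in SN, against 27.6% and 25.0% in NSN. The 7 kinase genes held 1.47% and 1.78% in SN, against 1.60% and 1.79% in NSN, and the 5 tail genes 1.18% and 1.16% in SN, against 1.36% and 1.57% in NSN. In each of the 4 libraries the summed TPM ran in the order junction, middle, head, kinase, tail and scaffold. Longer transcripts had lower levels: Spearman's rho between effective length and TPM was -0.821 over the 33 members, given as a description. Over the 13165 genes at or above the lowest member it was -0.269. The points share the same 4 libraries, and the length enters the TPM value as its divisor.

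**Figure D1:**
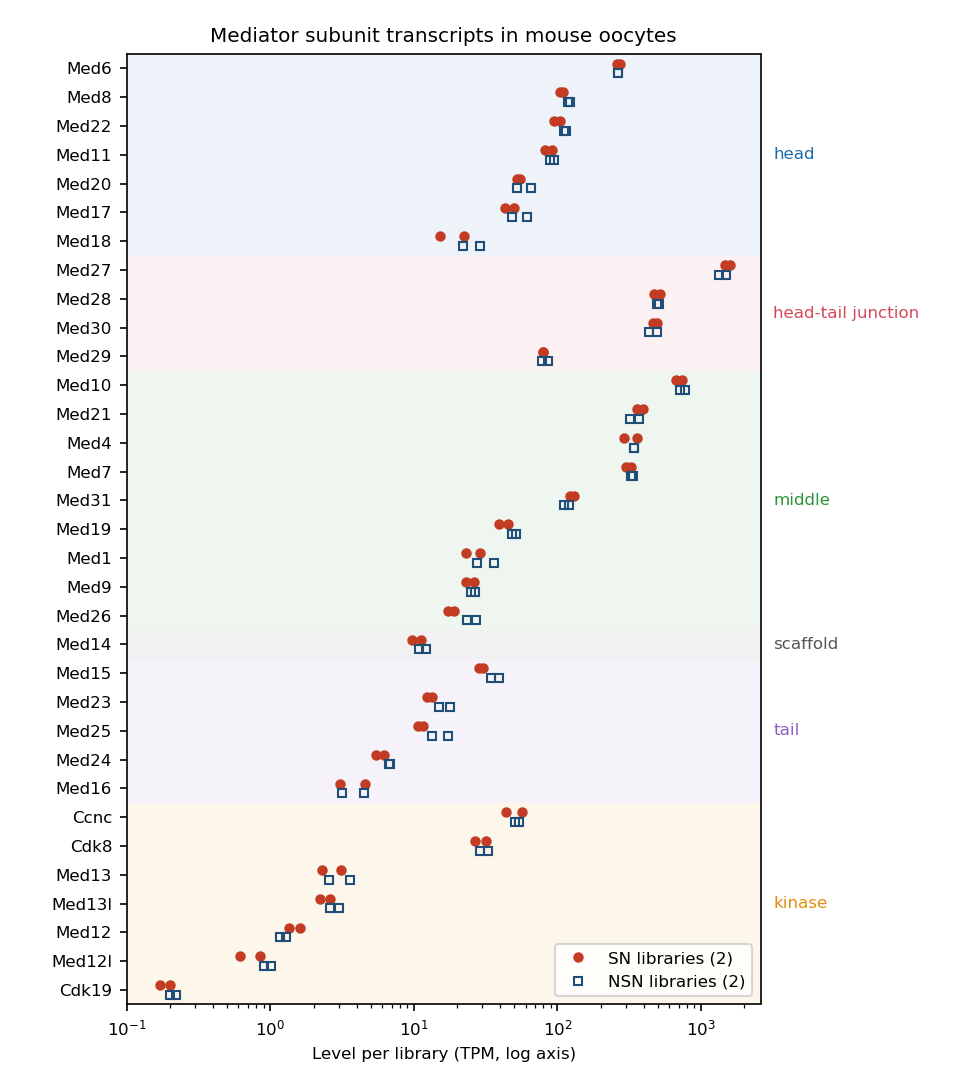
Level of each Mediator member in TPM (log axis) in the 2 SN libraries (filled circles) and the 2 NSN libraries (open squares), grouped by module and ordered by mean level within it. Med27 stands at the top with a mean of 1477 TPM and Cdk19 at the bottom with 0.198 TPM, and the classes lie close together for most members.

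**Figure D2:**
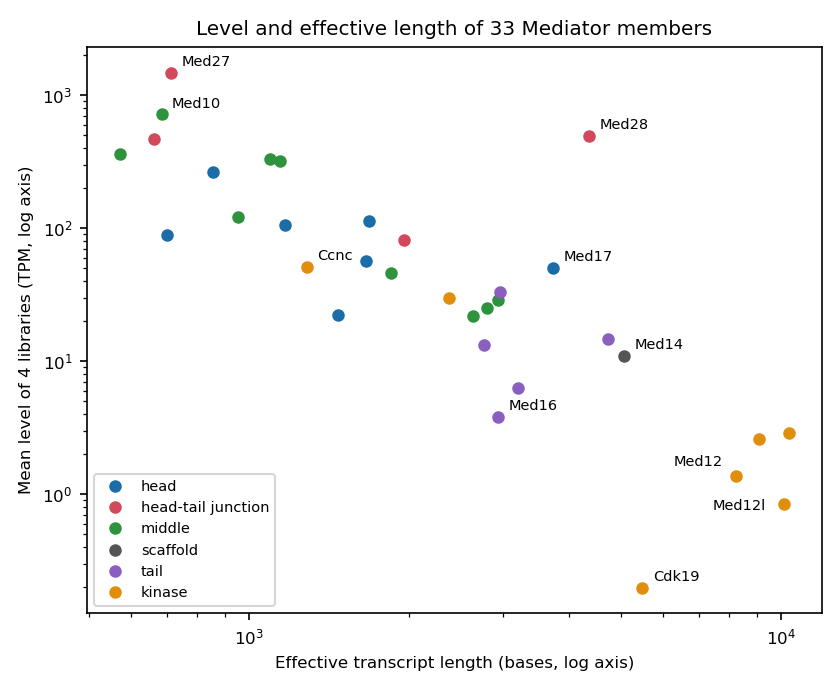
Mean level over the 4 libraries in TPM against the effective transcript length in bases for the 33 members, both on log axes and coloured by module. Long kinase-module transcripts lie low and short junction and middle transcripts lie high, while Med28 is both long and abundant.

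SN oocytes were then compared with NSN oocytes, the contrast of the study, by edgeR's quasi-likelihood test over all 13426 genes that passed the filter on low counts, with Benjamini-Hochberg adjustment. All 33 members passed that filter. No member was called at an adjusted p of 0.05, and neither was any other gene, so that 0% of all genes were called. The smallest adjusted p among members was 0.662. At an unadjusted p under 0.05 there were 3 members with higher values in SN (Med12, Med21 and Med31), against a background of 4.01% of all genes, and 1 with lower values (Med26), against 3.46%. Together these were 4 of 33 members, beside 7.48% of all genes. DESeq2 called 47 genes, or 5.25% of the 896 to which it gave an adjusted p, and 0 of the 6 members among these. At its unadjusted p under 0.05 there were 4 members higher in SN (Med21, Med27, Med30 and Med31), beside 3.04% of 17914 genes. There was 1 lower (Med26), beside 1.09%. These 17914 genes were all genes with a count, without the low-count filter that all 33 members passed. The DESeq2 shares are therefore over another set of genes than those of edgeR. Single libraries moved the fold changes behind these unadjusted counts. The edgeR log2 fold change, SN over NSN, of Med21 was 0.101 without NSN replicate 2 and 0.449 without NSN replicate 1. That of Med26 was -0.244 and -0.333. In pooled oocytes, fewer cells with a transcript and less of it per cell cannot be told apart.

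The fold changes of the members were small. Their log2 fold changes, SN over NSN, ran from -0.29 to 0.45, with a median of 0.05 beside -0.01 over all genes tested. The change was above 0 for 19 members, where 48% of all genes were above 0. Both SN libraries lay above both NSN libraries for 9 members (18.3% of all genes did so), and below both for 5 members (20.7% of all genes). The direction depended on the scaling, which moves the all-gene median by -0.14 on the log2 scale with library size alone. With that scaling 23.9% of all genes and 8 members were above 0. On log2(TPM + 1), 20.8% of all genes and 6 members were. Across 6 scalings, 6 members were higher in SN in every one (Med6, Med12, Med21, Med27, Med30 and Med31), 9 were lower in every one, and 18 changed sign. The same counts over all genes were not made, so these are a description only. Most genes lay below 0 with library size alone and on log2(TPM + 1), and also on log2(TPM + 0.1), with 20.7% above 0. On log2(TPM + 1), Med6 was at 0.00967, close to no change, and Med30 at 0.0491, beside 0.215 in the edgeR test. The other members higher in every scaling were also smaller there than in that test. They were at 0.113 (Med21), 0.115 (Med27), 0.122 (Med31) and 0.158 (Med12).

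**Figure D3:**
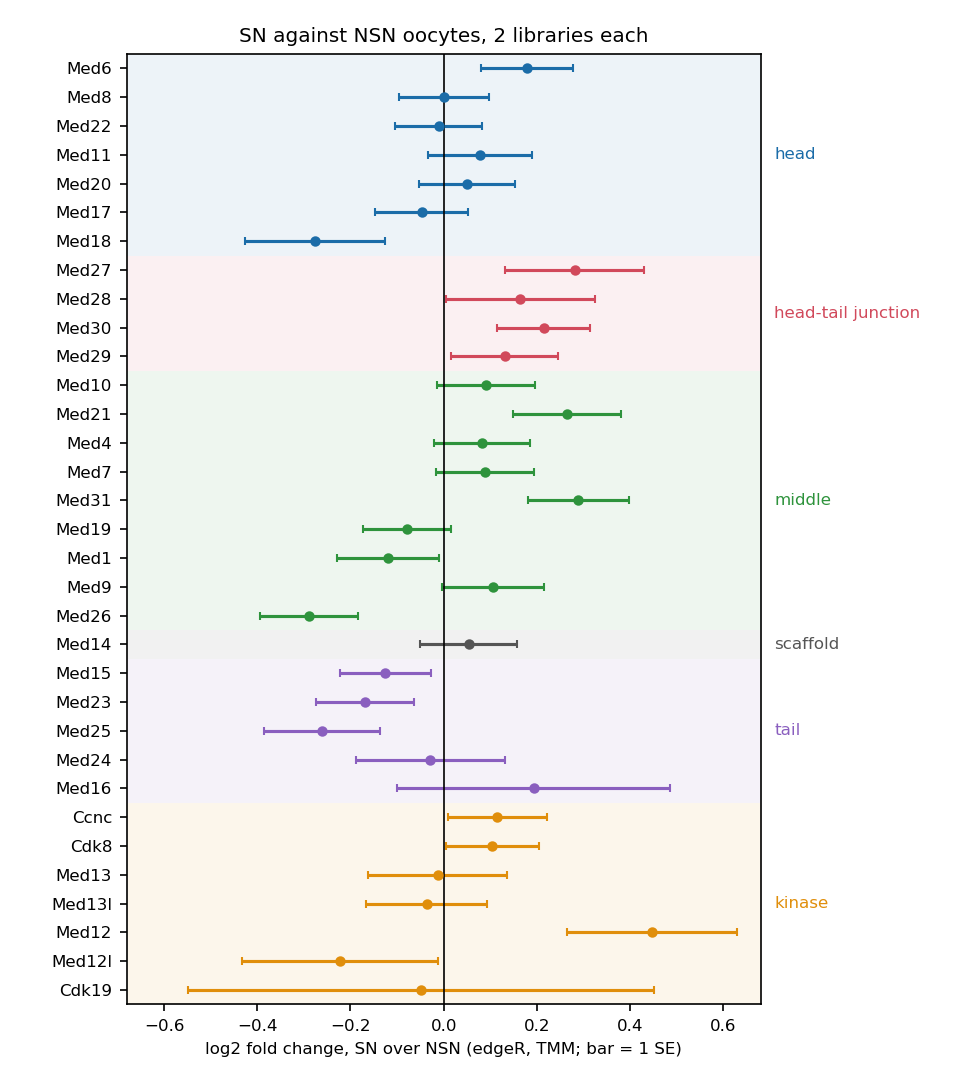
Log2 fold change of each member, SN over NSN, from edgeR with TMM scaling; bars are 1 SE and colours mark the modules. All values lie between -0.29 and 0.45, and no member passed an adjusted p of 0.05.

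The head module meets the polymerase and the initiation factors and was measured through 7 genes. Its most abundant member was Med6, a subunit conserved from yeast. Med6 had 186 and 171 TMM-scaled CPM (CPM after edgeR's trimmed-mean scaling, used below to compare classes) in SN libraries, against 165 and 151 in NSN libraries. The SN libraries lay above both NSN libraries by a log2 fold change of 0.18 (SE 0.10), with an edgeR adjusted p of 0.708. The least abundant was Med18, which pairs with Med20 in the movable jaw of the yeast head. Med18 had 18.7 and 24.1 CPM in SN libraries and 23.7 and 28.2 CPM in NSN libraries. The classes overlapped, and the log2 fold change was -0.28 (SE 0.15, edgeR adjusted p 0.708). Leaving out SN replicate 1 gave -0.0985 and leaving out SN replicate 2 gave -0.47. Med8, Med11, Med17, Med20 and Med22, which complete the head, had log2 fold changes between -0.05 and 0.08, each within 1 SE of 0. None of the 7 head genes had an unadjusted p under 0.05.

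Med27, Med28, Med29 and Med30 connect the head with the tail and are placed in either module by different accounts. All 4 had log2 fold changes above 0, from 0.13 to 0.28, and none passed. Med27 had 952 and 773 CPM in SN libraries, against 782 and 638 CPM in NSN libraries. The lower SN library thus lay just under the higher NSN library, and the log2 fold change was 0.28 (SE 0.15, edgeR adjusted p 0.707). With 1 library left out it lay between 0.13 (SN replicate 1) and 0.43 (NSN replicate 1). It was 0.132 with library size alone and 0.114 with cyclic loess. Med29, the least abundant of the 4, had 131 and 114 CPM in SN libraries, against 123 and 101 CPM in NSN libraries, which overlapped. Of the 4, Med30 was the one whose SN libraries both lay above both NSN libraries, at a log2 fold change of 0.21 and an edgeR adjusted p of 0.662. Abundant genes in general ran the same way: in the band of average log2 CPM from 8 to 10, 84.3% of the 504 genes were higher in SN. So were the 4 members in it, which were Med27 and the middle genes Med4, Med7 and Med10. Above 10 it was 98.4% of 125 genes, with Med28 as the only member. Med29 and Med30 lay in the band from 6 to 8, where 60.3% of 2151 genes and 7 of 10 members were higher in SN. Between 4 and 6, 44.9% of genes were higher in SN, and 5 of 13 members. The part of abundance in these directions was not tested.

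The most abundant member, Med27, had 6 models. A predicted RefSeq model carried 1305 and 1213 TPM in SN libraries, against 1245 and 1083 TPM in NSN libraries. This was 82.3% and 81.8% of the gene's TPM in SN, against 83.1% and 80.9% in NSN. A curated model that starts downstream of the annotated first exons carried 251 and 238 TPM in SN, against 224 and 229 TPM in NSN. The curated full-length model carried 18.8 and 19.3 TPM in SN, against 17.8 and 15.0 TPM in NSN, or 1.20% of the gene on average. The same order of models thus held in all 4 libraries, and the shares of the models gave a Simes p of 1.00 between classes (adjusted p 1.00). The effective length of the predicted model, 692 bases, was 361 bases under that of the full-length model and 87 bases under that of the downstream-start model. Its exons are not in the annotation used here, and so neither is its start.

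**Figure D4:**
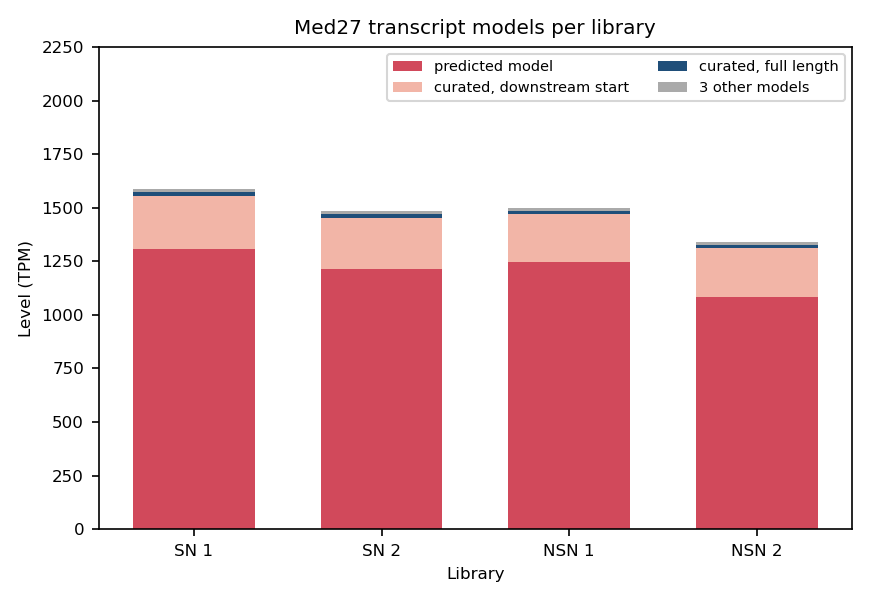
Level of the Med27 transcript models in TPM, stacked for the 2 SN libraries and then the 2 NSN libraries. The predicted model carries between 80.9% and 83.1% of each bar, and the curated full-length model is the thin band with 15.0 to 19.3 TPM.

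GENCODE lists several starts of Med27 on chromosome 2, plus strand, of GRCm38. The starts of the full-length and of the downstream-start model, each with a RefSeq promoter window, are shown because the deposited levels put nearly all of the gene outside the full-length model. In GENCODE the full-length transcript starts at 29346819, has 8 exons and encodes 311 residues. The downstream transcript starts at 29378533, has 7 exons and encodes 172 residues, with its start codon at 29413457 in an exon that both share. RefSeq's promoter windows, 250 bases before to 50 after a start in GRCm38.p6, are chr2:29346560-29346859 for the upstream start and chr2:29378264-29378563 for the downstream start. In both, CG dinucleotides are in capitals.
Med27 upstream promoter: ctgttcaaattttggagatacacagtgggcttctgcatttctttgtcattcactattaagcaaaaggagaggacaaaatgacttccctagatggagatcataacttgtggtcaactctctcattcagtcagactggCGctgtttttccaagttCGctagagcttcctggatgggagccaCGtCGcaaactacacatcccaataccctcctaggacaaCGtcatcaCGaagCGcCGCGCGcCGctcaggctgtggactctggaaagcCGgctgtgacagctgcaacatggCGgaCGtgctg
Med27 downstream promoter: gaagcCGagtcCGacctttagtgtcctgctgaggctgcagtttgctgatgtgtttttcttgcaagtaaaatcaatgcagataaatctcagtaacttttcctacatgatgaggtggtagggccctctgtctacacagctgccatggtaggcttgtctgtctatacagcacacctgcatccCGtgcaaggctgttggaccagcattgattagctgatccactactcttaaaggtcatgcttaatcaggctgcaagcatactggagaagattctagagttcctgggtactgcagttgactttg
The upstream window holds 14 CG dinucleotides and 50.7% G or C, and the downstream window 3 CG dinucleotides and 47.0%. CG, which reads the same on both strands, occurred fewer times in 63.7% and in 23.3% of the 32851 promoter windows of the table. The junctions that tell the transcripts apart, from GENCODE, are given as 15 bases of the exon before and, in capitals, 15 bases of the shared exon that starts at 29413388.
Full-length transcript: aaatggtccaacaagCTGCAGTACCATGCA
Downstream-start transcript: taatttaccaagcagCTGCAGTACCATGCA

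RefSeq promoter windows were found for 28 members, 32 windows in all, and not for Cdk19, Med8, Med23, Med24 and Med30. The members' windows held between 3 and 61 CG dinucleotides with a median of 20, beside a median of 7 over all windows. The downstream start of Med27 held the fewest and Med13l the most. The letters TATAAA, searched on both strands, occurred in 3 member windows (those of Med16 and Med28 and 1 of Med7) and in 13.6% of all windows. Med10 also had 2 windows on chromosome 13, which start at 69802120 with 4 CG dinucleotides and at 69809632 with 20. The curated Med10 model whose start lies in the CG-rich window carried 90.8% and 90.7% of the gene's TPM in SN libraries, against 90.7% and 91.2% in NSN libraries.

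The middle module, with 9 genes, forms an elongated body beside the head and touches the polymerase. Its most abundant gene was Med10, with 387 and 368 CPM in SN libraries, against 356 and 352 CPM in NSN libraries. The SN libraries lay above both NSN libraries, with a log2 fold change of 0.09 (SE 0.11) that turned to -0.05 with library size alone. Med21, which pairs with Med7 to form the hinge in yeast, had 171 and 164 CPM in SN libraries, against 156 and 123 CPM in NSN libraries. All SN values were above the NSN values, and the log2 fold change was 0.26 (SE 0.12, unadjusted p 0.042, edgeR adjusted p 0.662). It was 0.10 without NSN replicate 2 and 0.45 without NSN replicate 1. Med31, one of the most conserved subunits, had 98.3 and 90.2 CPM in SN libraries, against 84.0 and 70.3 CPM in NSN libraries. Here too the classes did not overlap, with a log2 fold change of 0.29 (SE 0.11, unadjusted p 0.0202, edgeR adjusted p 0.662).

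Exons of Med21 overlap those of Tm7sf3 on the other strand, and without a stated strand setting their shared reads cannot be told apart. Tm7sf3 had a log2 fold change of 0.03 (SE 0.11). Exons of Med31 overlap the noncoding gene 4930563E22Rik on the other strand, which had at most 0.107 CPM in any library. In all, 18 members share exon bases with another annotated gene, and 5 with a gene in the deposited table.

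Med26, the middle-module subunit that recruits elongation factors in human cells, was the one member at an unadjusted p under 0.05 with lower values in SN. It had 38.7 and 36.9 CPM in SN libraries, against 44.8 and 47.6 CPM in NSN libraries. Both SN libraries lay below both NSN libraries, with a log2 fold change of -0.29 (SE 0.11, unadjusted p 0.0183, edgeR adjusted p 0.662). It was lower in SN in each of the 6 scalings, but these moved the all-gene median by -0.168 to 0.0137, less than this fold change. The shared sign is therefore no separate support. A predicted model carried most of Med26, with 13.8 and 17.3 TPM in SN libraries, against 22.2 and 23.3 TPM in NSN libraries. The curated model had 3.52 and 1.83 TPM in SN, against 1.32 and 3.88 TPM in NSN, which overlapped. The fold change of Med26 turned to 0.28 when curated models alone were summed. In the edgeR test per transcript, the predicted model had an unadjusted p of 0.0191 and an adjusted p of 0.696. The authors' deposited values, from the same 4 libraries, gave it a log2 ratio of -0.39, SN over NSN, with an unadjusted p of 0.000467. Models of other members were also under 0.05 there, some lower in SN (Med15, Cdk19) and some higher (Med30, Med31). The share of all transcripts under 0.05 in the authors' values was not counted. Of the remaining middle genes, Med4, Med7 and Med9 had log2 fold changes between 0.08 and 0.11, while Med1, the nuclear-receptor contact, had -0.12, which turned to 0.02 without NSN replicate 2, and Med19 -0.08.

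Med14, the scaffold that joins head, middle and tail, was a long transcript at a low level. It had 41.4 and 42.2 CPM in SN libraries, against 39.7 and 40.9 CPM in NSN libraries. The SN libraries lay just above the NSN libraries, with a log2 fold change of 0.05 (SE 0.10), which turned to -0.09 with library size alone.

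The tail, which receives activators, gave 4 of 5 genes with log2 fold changes below 0, where 48% of all genes were above 0. In the bands of average log2 CPM that hold these genes (2 to 4, 4 to 6 and 6 to 8), 39.9%, 44.9% and 60.3% of genes were higher in SN. Both SN libraries lay below both NSN libraries for Med15, Med23 and Med25, as they did for 20.7% of all genes. No tail gene had an unadjusted p under 0.05. Med15, a target of sterol-responsive activators in human cells, was the most abundant of them. It had 71.8 and 66.3 CPM in SN libraries, against 72.9 and 77.7 CPM in NSN libraries. Its log2 fold change was -0.12 (SE 0.10, edgeR adjusted p 0.772), and 0.11 when curated models alone were summed. Med25, contacted by the viral activator VP16, had a log2 fold change of -0.26 (SE 0.12) and an edgeR adjusted p of 0.669, and Med23 one of -0.17. Med16, the least abundant, had 11.3 and 6.66 CPM in SN libraries, against 9.64 and 6.09 CPM in NSN libraries. The 2 libraries within each class lay farther apart than the classes, and the log2 fold change was 0.19 (SE 0.29). Med24 had 16.7 and 12.7 CPM in SN libraries, against 15.5 and 14.4 CPM in NSN libraries, and the SN values enclosed the NSN values.

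The kinase module is built of a kinase (Cdk8 or its paralog Cdk19), cyclin C, Med12, which activates the kinase, and Med13, which joins the module to the core. Ccnc, which encodes cyclin C, had 47.4 and 53.8 CPM in SN libraries, against 46.9 and 46.4 CPM in NSN libraries. Cdk8 had 53.4 and 55.7 CPM in SN libraries, against 49.7 and 51.8 CPM in NSN libraries. Both genes were higher in both SN libraries, by log2 fold changes of 0.12 (SE 0.11) and 0.10 (SE 0.10), and both signs turned with library size alone (-0.02 and -0.04).

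Cdk19, the other kinase, had 25 and 30 counts in SN libraries, against 27 and 28 counts in NSN libraries, so its log2 fold change of -0.05 had an SE of 0.50. Med13 had 19.8 and 23.6 CPM in SN libraries, against 19.3 and 24.5 CPM in NSN libraries, and Med13l had 17.03 and 17.5 CPM in SN, against 17.1 and 18.3 CPM in NSN. Both overlapped between the classes, with log2 fold changes of -0.01 (SE 0.15) and -0.04 (SE 0.13).

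Med12 had the largest positive fold change of the 33 members. It had 9.46 and 9.80 CPM in SN libraries, against 7.74 and 6.40 CPM in NSN libraries. Both SN libraries lay above both NSN libraries, by a log2 fold change of 0.45 (SE 0.18, unadjusted p 0.030, edgeR adjusted p 0.662). Med12 was higher in SN in all 6 scalings, no separate support, as these moved the all-gene median by less than its fold change. Its paralog Med12l had 5.24 and 6.20 CPM in SN libraries and 7.35 and 6.03 CPM in NSN libraries, which overlapped, with a log2 fold change of -0.22 (SE 0.21). On the level scale both were low. Med12 had 1.36 and 1.62 TPM in SN libraries, against 1.29 and 1.17 TPM in NSN libraries, and Med12l had 0.62 and 0.85 TPM in SN libraries, against 1.01 and 0.91 TPM in NSN libraries.

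The 3 paralog pairs differed in balance. Cdk19 was at 0.00634 and 0.00627 of the Cdk8 level (ratio of TPM) in SN libraries, against 0.00693 and 0.00671 in NSN libraries. Med12l was at 0.456 and 0.525 of the Med12 level in SN libraries, against 0.783 and 0.778 in NSN libraries. Med13l was at 0.974 and 0.840 of the Med13 level in SN libraries, against 1.00 and 0.844 in NSN libraries. The Med12l to Med12 ratio was lower in both SN libraries, by -0.67 on the log2 scale. The exact two-sided permutation p was 0.333, the smallest that 2 libraries against 2 allow, and 0.5 after Benjamini-Hochberg adjustment over the 3 pairs. The difference was -0.11 for Cdk19 over Cdk8, also with an exact p of 0.333, and -0.03 for Med13l over Med13 with an exact p of 0.667. The Med13l difference changed sign when SN replicate 2 or NSN replicate 1 was left out.

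**Figure D5:**
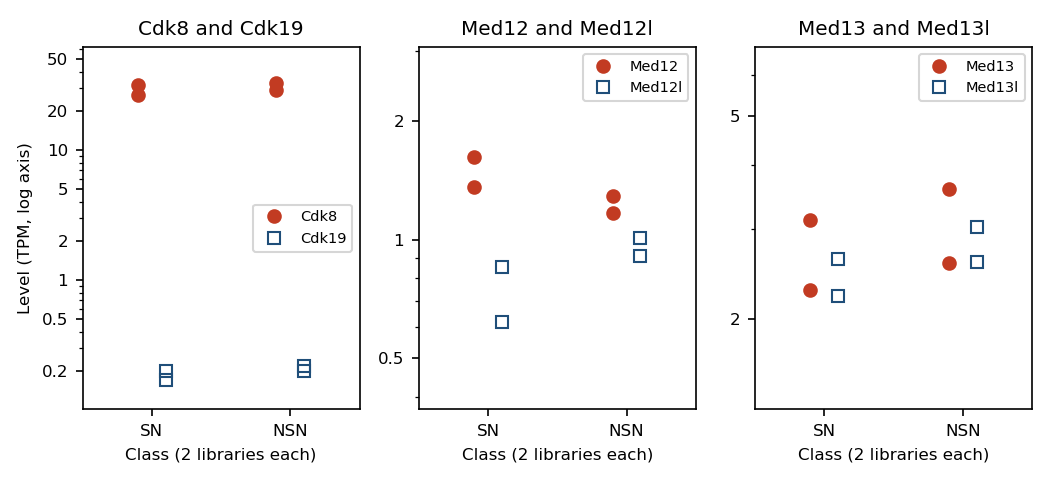
Level in TPM (log axis) of the kinase-module paralogs in the 2 SN libraries (left) and the 2 NSN libraries (right) of each panel. Cdk8 lies far above Cdk19, Med13 and Med13l lie together, and the gap between Med12 and Med12l is wider in SN than in NSN libraries.

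Split into transcript models, no member was called by edgeR, and 2 member models were called by DESeq2. Of the 111 models, 67 are curated and 44 predicted; 13 members have a single model, and a predicted model has the largest mean share in 4 (Med7, Med15, Med26 and Med27). For Med15 the lead was not stable: the predicted model held 22.9% and 32.6% of the gene in SN libraries, against 48.4% and 29.8% in NSN libraries, and a curated one held 33.7% and 38.9% in SN, against 31.4% and 29.1% in NSN. The edgeR test called 0% of 29835 transcripts, and 6.47% of them had an unadjusted p under 0.05. Of the 85 member models tested, 3 did, all with lower values in SN. These were the predicted model of Med26, 1 model of Cdk19 and 1 predicted model of Med15. The Cdk19 model was assigned 0 counts in both SN libraries and 27.0 and 20.8 counts in NSN libraries, while the gene as a whole had 25 and 30 counts in SN and 27 and 28 counts in NSN. The Med15 model was assigned 0 counts in both SN libraries and 46.1 and 64.5 counts in NSN libraries, on average 0.995% of the gene's TPM. DESeq2 called 1178 transcripts, or 3.66% of the 32227 with an adjusted p, and 2 of the 94 member models with one. These were the predicted Med26 model (adjusted p 0.0184) and this Med15 model (adjusted p 0.000573).

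The shares of models within a gene were tested for 18 members, and none was called, where 0.386% of 7000 genes were called and 6.33% had an unadjusted Simes p under 0.05. The smallest Simes p values were 0.339 for Med15, 0.609 for Med24 and 0.802 for Med26. Med24 shows how unstable the split can be. One curated model held 0 and 4.06 TPM in SN libraries, against 3.29 and 4.80 TPM in NSN libraries. The other held 6.22 and 1.35 TPM in SN libraries, against 0 and 2.01 TPM in NSN libraries. A predicted model held 3.38 TPM in 1 NSN library and 0 TPM in the other 3 libraries. For each curated model, 1 library stood at 0 TPM while the other library of its class did not.

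The partners of Mediator were counted in the same fit. Of 12 RNA polymerase II subunits, 11 had log2 fold changes above 0, where 48% of all genes did, with a median of 0.14, and 1 had an unadjusted p under 0.05. These are abundant transcripts, with a median of 7.39 log2 CPM, and in the band from 6 to 8 log2 CPM 60.3% of all genes were above 0. Some of them, such as Polr2c and Polr2d, were more abundant than that band. From 8 to 10 log2 CPM 84.3% of all genes were above 0, and above 10 log2 CPM 98.4%. Polr2f had a log2 fold change of 0.28 (edgeR adjusted p 0.662), and Polr2k one of 0.19 (edgeR adjusted p 0.681). Of 35 general transcription factor genes, 22 were above 0, with a median of 0.04, and 6 had an unadjusted p under 0.05, all higher in SN, where 4.01% of all genes were. The median abundance of the 35 genes was 6.34 log2 CPM, in the band from 6 to 8 log2 CPM. Of the 6 genes, Gtf2a2, Gtf2f1, Taf8 and Taf13 lay in that band, with 60.3% of all genes above 0. Gtf2b and Taf9 lay in the band from 8 to 10 log2 CPM, with 84.3% above 0. The part of abundance was not tested. The TFIID subunit genes Taf13 and Taf8 had log2 fold changes of 0.37 and 0.31 (edgeR adjusted p 0.609 and 0.662). Of the 15 elongation partners of Med26, 9 were above 0, with a median of 0.03, and none had an unadjusted p under 0.05. Cdk9, the kinase of P-TEFb, had a log2 fold change of -0.40 and Ell2 one of -0.33 (edgeR adjusted p 0.665 and 0.731). No gene of these 3 lists was called.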

How the data were processed

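RNA from 4 libraries of mouse germinal vesicle oocytes was captured with oligo(dT), per the labels' protocols, so tail length can affect a level. The submitters' processing notes name HISAT2, Bowtie2 and RSEM and the build mm10, but no versions. The authors deposited estimated counts per RefSeq model (59.8% not whole), TPM, FPKM (used here only for effective lengths), normalized read counts (a signal scaled for depth, which was not tested), and their own log2 ratio and p-value per model. RSEM divides reads shared by models or paralogs, so single models are less certain than genes. The strand setting is not given in the sources used here.

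Estimated counts were summed per Gene ID, rounded, filtered by filterByExpr (13426 genes) and scaled by TMM in edgeR 4.0.16 under R 4.3.3. SN was compared with NSN by the quasi-likelihood test with robust dispersion and Benjamini-Hochberg adjustment at 0.05, and each SE was derived from the F statistic. Model shares were tested with diffSpliceDGE. DESeq2 1.42.0 and limma 3.58.1 gave alternatives. A floor of 3 counts corresponds to 0.081 to 0.0929 CPM, and floors cover counting error only. The squared difference between 2 libraries of a class averaged 36.5 (SN) and 21.5 (NSN) times the sampling variance over 10965 and 10986 genes, so no 2 libraries were treated as 1 deposited again. This does not show that they are independent samples. Locations are from RefSeq (GRCm38.p6) and GENCODE (GRCm38). The members, modules and context lists were chosen with earlier results of these data known. Values per library were given for the kinase module, Med14, the highest and lowest member of each other module by TPM, members with an unadjusted p under 0.05 and the 3 with the smallest isoform p; of each context list, the 2 genes with the smallest p were named.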

Additional observations from a re-analysis of the deposited data

How the results depend on the processing

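No member gene was called under any alternative run, but DESeq2 gave an adjusted p to only 6 of the 33. The count of all genes called, 0 as reported, was 47 with DESeq2, 15 with library size alone, 15 with no filter, 47 on log2(TPM + 1), 45 on log2(TPM + 0.1) and 1 with curated models only. Leaving out SN replicate 1 gave 27, leaving out SN replicate 2 gave 289 and leaving out either NSN library gave 2, a leave-one-out range of 2 to 289, in which the lone library is assumed to vary like the other class. Member transcripts called were 2 with DESeq2. The members' median log2 fold change, 0.05 as reported, was -0.0893 with library size alone, 0.00572 with cyclic loess, -0.0905 on log2(TPM + 1) and -0.123 on log2(TPM + 0.1), where the all-gene medians were -0.154, -4.12e-05, -0.133 and -0.179. Over the leave-one-out fits it ran from 0.00494 (SN replicate 1 left out) to 0.0729, with 0.0126 for NSN replicate 2. The cause of these shifts was not tested.

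Fitted with the replicate number as a block, 44 genes, all higher in SN, and 0 members were called. The sources used here do not say that a number marks a shared collection. The correlation of deviations between same-numbered libraries was 0.029, and the block changed no member's call. At an unadjusted edgeR p under 0.05, the block gave 6 members higher and 2 lower in SN, beside 3 and 1 without it. The share of all genes at that p with the block was not counted.

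For the 24 members given a fold change of their own, 299 of 336 alternative values kept their direction and 37 turned, in 13 members. With library size alone, Ccnc turned to -0.0224, Cdk8 to -0.0378, Med10 to -0.054, Med14 to -0.0893 and Med29 to -0.0153. On log2(TPM + 1), Ccnc was -0.0601, Cdk8 -0.07, Med10 -0.0751, Med14 -0.117, Med16 -0.00275 and Med29 -0.0417. On log2(TPM + 0.1), Ccnc was -0.0614, Cdk8 -0.0722, Med10 -0.0752, Med14 -0.126, Med16 -0.0042 and Med29 -0.0421. With cyclic loess, Cdk19 was 0.0425, Med10 -0.0256, Med13 0.027, Med13l 0.00572 and Med24 0.00534. Med13 was 0.00234 with DESeq2 and 0.00175 with its size factors in edgeR. With curated models only, Med15 was 0.112, Med24 0.404 and Med26 0.276. The leave-one-out values ran from -0.0938 to 0.00494 for Cdk19, -0.176 to 0.172 for Med13, -0.0831 to 0.0126 for Med13l, -0.232 to 0.561 for Med16, -0.235 to 0.163 for Med24, -0.00428 to 0.28 for Med29 and -0.245 to 0.0191 for Med1. Among those that kept their sign, they ran from 0.317 to 0.589 for Med12, 0.101 to 0.449 for Med21, 0.167 to 0.421 for Med31, -0.333 to -0.244 for Med26, 0.162 to 0.275 for Med30 and -0.359 to -0.154 for Med25. The Med13l to Med13 difference ranged from -0.151 to 0.0994 over the leave-one-out values, with 0.0811 without SN replicate 2. Depth limits Cdk19, with 25 to 30 counts per library.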
